A study of Rattus norvegicus with 32 samples.

Results

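The 10 genes described here are Etv1, Etv4, Etv5, Spry1, Spry2, Spry4, Spred1, Spred2, Spred3 and Dusp6, which are transcription factors and inhibitors that act downstream of growth factor receptors. They were chosen by name, as the feedback inhibitors and PEA3 transcription factors of the ERK pathway, and with earlier results of these data known. All 10 were found among the 28914 genes of the count tables. RNA-seq libraries of rRNA-depleted total RNA came from the brains of adult male Sprague-Dawley rats that received 4 injections of methamphetamine (METH, 10 mg/kg each) into the abdomen at intervals of 2 h, or saline (Sal) on the same schedule, and were killed 24 h after the last injection. Tissue came from the nucleus accumbens (NAc), a part of the ventral striatum, from the dentate gyrus (DG) and Ammon's horn (CA), both parts of the hippocampus, and from the subventricular zone (SVZ), a site of neural progenitors beside the lateral ventricle. Each region gave 4 Sal and 4 METH libraries, 32 in all. NAc and SVZ were punched from frozen slices and DG and CA were scooped out, so each sample holds all the cell types of its piece of tissue.

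Growth factors such as FGFs, neurotrophins and EGF-like ligands bind receptor tyrosine kinases, which activate Ras and in turn the kinases Raf, MEK and ERK. ERK signalling induces its own inhibitors. Sprouty proteins (Spry) and the related Spred proteins restrain the step from Ras to Raf, and Dusp6 is a phosphatase that removes the activating phosphates from ERK in the cytoplasm. Etv1, Etv4 and Etv5 are the PEA3 group of Ets transcription factors, which bind DNA at a GGAA core and are widely read as a transcriptional output of FGF signalling. In neurons the same cascade responds to synaptic activity and to neurotrophins.

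The libraries held 11094002 to 21869773 reads counted on genes (median 14533166.5). Each member passed the filter on low counts in every comparison, with 28 reads (Spry1 in CA METH 1) as the lowest member count and 3814 (Etv1 in CA METH 2) as the highest. Levels are given as CPM, counts relative to the upper-quartile-scaled library size. The marker genes of the tissues set 5 libraries apart. NAc METH 3 had a summed level of 9 medium spiny neuron markers, the main neurons of the striatum, of 269 CPM, against 1750 to 9210 CPM in the other 7 NAc libraries. DG Sal 3 had 2050 CPM of the same markers, against 180 to 475 CPM in the other 7 DG libraries, and its level of Neurod6, a hippocampal neuron marker, was 0.0635 CPM. SVZ Sal 1, SVZ METH 2 and SVZ METH 4 had 1431 to 2330 CPM of 6 thalamic neuron markers, against 110 to 518 CPM in the other 5 SVZ libraries. Of the defining markers, Fibcd1 (CA pyramidal neurons) was at or near 0 in all libraries, CA included. The granule neuron gene Prox1 overlapped between DG (26.1 to 312 CPM) and CA (33.2 to 296 CPM). The median sum of 7 granule neuron markers was 191 CPM in DG Sal and 417 CPM in DG METH. It was 318 CPM in CA Sal, 255 CPM in CA METH and 191 CPM in SVZ Sal, so these markers did not set DG Sal apart. All 8 SVZ libraries came from 1 of 5 source folders named in the count headers and no other region shared it, so SVZ and that folder cannot be told apart. In DG, replicates 1 and 2 of each treatment carried the library numbers that NAc and CA libraries of the other treatment carried. The 4 SVZ METH libraries carried 2 library numbers between them, and no member was called for METH in SVZ when libraries of the same number were summed. NAc and CA libraries of the same treatment and replicate carried the same number, and DG replicates 3 and 4 carried it too. The main differences from SVZ and the METH effects in SVZ are also given without the 5 libraries.

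The promoter sequences of Dusp6, Etv5 and Etv1 are shown because these genes differed most between the regions. Each line is the 250 bases before the annotated start of the gene, in its own direction of transcription, from RefSeq on the build GRCr8, at chr7:35979354-35979603 (plus strand), chr11:92113013-92113262 (plus strand) and chr6:61317179-61317428 (plus strand). Capitals mark the Ets core GGAA and the CCAAT box, either as written or as their reverse complements TTCC and ATTGG.
Dusp6: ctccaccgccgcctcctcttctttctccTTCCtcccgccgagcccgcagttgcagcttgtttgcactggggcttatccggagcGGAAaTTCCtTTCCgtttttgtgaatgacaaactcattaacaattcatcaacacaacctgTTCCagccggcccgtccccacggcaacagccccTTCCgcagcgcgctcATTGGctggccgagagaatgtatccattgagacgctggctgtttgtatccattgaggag
Etv5: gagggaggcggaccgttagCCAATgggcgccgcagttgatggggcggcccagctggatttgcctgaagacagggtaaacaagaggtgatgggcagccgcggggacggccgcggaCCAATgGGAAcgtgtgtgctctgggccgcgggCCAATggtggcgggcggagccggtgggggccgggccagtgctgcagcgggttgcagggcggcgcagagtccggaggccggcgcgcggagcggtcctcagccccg
Etv1: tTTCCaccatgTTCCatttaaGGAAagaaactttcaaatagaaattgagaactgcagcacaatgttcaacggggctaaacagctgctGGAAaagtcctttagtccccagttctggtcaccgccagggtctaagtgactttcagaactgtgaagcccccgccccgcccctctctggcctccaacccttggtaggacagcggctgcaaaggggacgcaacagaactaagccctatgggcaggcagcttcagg

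Windows of this kind were found for 9 of the 10 genes, with 2 starts for Spry2. The core GGAA occurred 6 times in the Dusp6 window, 4 times in that of Etv1 and 1 time in that of Etv5. Among all 33465 windows of this length 93.2% held at least 1 such core, the median was 3, and 9.27% held 6 or more. The Etv5 window held the CCAAT box 3 times, a count reached by 2.53% of windows, and was rich in G and C (72.4%, against a median of 51.2%). Over the other members the GGAA core was counted 7 times for Spred2, 4 times for Spred3, 3 times each for Spred1 and Spry4, 2 and 4 times at the 2 starts of Spry2, and 0 times for Spry1. The longer Ets motif CCGGAA, which contains the GGAA core, was matched 1 time each for Spry2 and Spry4 (12.6% of all windows). No member window held the AP-1 motif TGANTCA (6.34% of all windows) or the full cAMP response element (1.59%), and its shorter form TGACG was found for Spred2 and Spry2 (18.2%). These are letter matches on both strands of short windows and not measurements of binding.

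Adjusted for gene length, the Spred genes and Spry2 gave the highest transcript levels and Etv4 and Spry1 the lowest. The median over the 32 libraries in TPM, which scales counts by gene length and library, was 113 for Spred1, 63.5 for Spred2, 54.6 for Spry2, 33.5 for Etv5, 30.3 for Etv1, 20.1 for Dusp6, 14.9 for Spred3, 5.23 for Spry4, 4.58 for Etv4 and 4.12 for Spry1. In CPM, which are not divided by length, Etv1 came first (median 95.4 CPM), since its annotated exons sum to 6906 bases, against 1635 for Spred1. All further levels are CPM and are compared only within a gene. The range over the 32 libraries, taken as the ratio of highest to lowest, was widest for Dusp6 (12.0 to 86.3 CPM), Etv1 (52.7 to 301 CPM) and Etv5 (25.8 to 145 CPM). It was narrower for Spry2 (28.3 to 83.2 CPM), Spred1 (60.5 to 164 CPM), Spred2 (29.0 to 71.8 CPM), Spred3 (5.80 to 25.2 CPM), Spry4 (7.55 to 25.1 CPM), Spry1 (2.34 to 8.07 CPM) and Etv4 (3.71 to 9.68 CPM). No other annotated gene shared exons with a member, although the spans of Etv1, Spry2 and Spred3 overlapped those of other genes, and counting without strand cannot tell apart reads from unannotated exons there.

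The genes lie on 10 different chromosomes of the build rn6, used by the count files. Among the Ets factors, Etv1 spans 58467254 to 58558631 of chromosome 6, Etv4 spans 89685058 to 89700283 of chromosome 10 and Etv5 spans 82194657 to 82252139 of chromosome 11. Dusp6 spans 41475163 to 41479392 of chromosome 7. The Sprouty genes are at 124400679 to 124405331 of chromosome 2 (Spry1), 90172975 to 90175802 of chromosome 15 (Spry2) and 32594958 to 32609864 of chromosome 18 (Spry4). The Spred genes are at 108795235 to 108857556 of chromosome 3 (Spred1), 104191517 to 104290456 of chromosome 14 (Spred2) and 88103719 to 88112683 of chromosome 1 (Spred3). The counts were summed over the annotated exons of each gene.

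**Figure D1:**
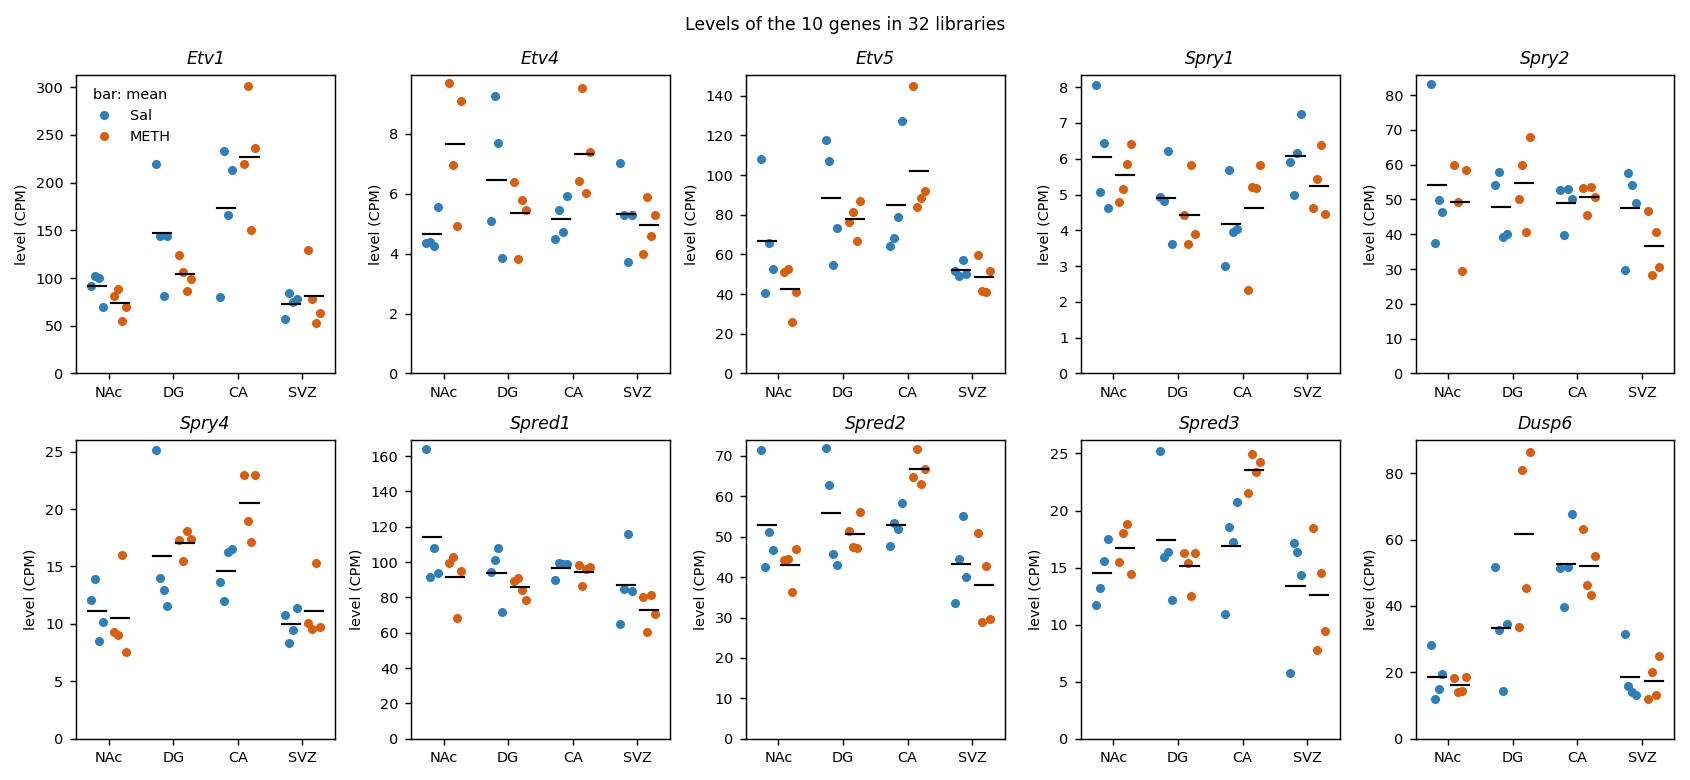
Level of each of the 10 genes in CPM (vertical axis, from 0) in every library, by region (horizontal axis) and treatment (colour); points are single libraries and bars are the means of 4. In the METH samples every DG and CA library of Dusp6 lay above every NAc and SVZ library and every CA library of Etv1 lay above the other regions, while Spry1 stayed between 2.34 and 8.07 CPM everywhere.

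The first question was how the levels differed between the 4 regions, asked separately in the METH and the Sal samples. In the METH samples 5 of the 10 genes differed among the regions (Dusp6, Etv1, Etv5, Spred2 and Spry4) at a false discovery rate (FDR) under 0.01, against 10.7% of all 15615 genes tested. Dusp6, the ERK phosphatase, was 2.95- to 3.78-fold higher in DG and CA than in NAc and SVZ, and Etv1 and Etv5 were 2.095- to 3.07-fold higher in CA than in NAc and SVZ. The number of 5 became 3 without any 1 of NAc METH 1, 2 or 4, DG METH 1, 2 or 4, CA METH 1 to 4 or SVZ METH 2 or 4, and 2 without both DG METH 1 and 2. It was 5 with the SVZ METH libraries of the same number summed, and 3 (Dusp6, Etv1 and Etv5) with the replicate number as a block in NAc and CA. Pairs of regions were called at an FDR under 0.01 and a difference over 2-fold, in edgeR's quasi-likelihood test. In a piece of tissue, fewer cells of a type and less RNA per cell cannot be told apart.

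Dusp6 read 18.3, 13.9, 14.3 and 18.5 CPM in the 4 NAc METH libraries and 12.0, 20.2, 13.1 and 24.9 CPM in the 4 SVZ METH libraries. In DG METH it read 33.8, 80.9, 45.3 and 86.3 CPM, and in CA METH 63.3, 46.4, 43.4 and 54.9 CPM. Every hippocampal library was therefore above every NAc and SVZ library, whereas DG and CA overlapped. The log2 difference of NAc minus DG was -1.92 ± 0.30 (SE, 4 against 4 libraries, edgeR FDR 0.00107), and in this pair 3.1% of all genes were called. NAc minus CA was -1.67 (edgeR FDR 0.0046, and 0.015 with the replicate number as a block in NAc and CA), DG minus SVZ was 1.81 (FDR 0.0012) and CA minus SVZ was 1.56 (FDR 0.00316). Neither DG and CA (0.25 ± 0.28, FDR 0.782) nor NAc and SVZ (-0.11 ± 0.29, FDR 0.839) differed beyond their spread. Without the libraries set apart by their markers the difference of DG minus SVZ was 2.30 and that of CA minus SVZ was 2.05, both still called. Dusp6 was the 1 member called in NAc against DG and in DG against SVZ (3.94% of all genes called), and it stayed called there whichever single library was left out.

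Etv1 read 81.1, 88.0, 55.1 and 69.9 CPM in NAc METH, and 130, 78.4, 52.7 and 63.5 CPM in SVZ METH. In CA METH it read 219, 301, 150 and 236 CPM, and in DG METH 125, 106, 86.5 and 98.9 CPM. All CA libraries were above all others, and DG overlapped with SVZ. The log2 difference of NAc minus CA was -1.62 (edgeR FDR 0.0030) and that of CA minus SVZ was 1.48 (edgeR FDR 0.00253). DG minus CA came to -1.12 ± 0.26 with an unadjusted p of 0.000669 and an edgeR FDR of 0.132, so it was not called, in a pair in which 0% of genes were. No member was called in NAc against SVZ (0.0384% of genes).

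Etv5 read 51.2, 52.5, 25.8 and 40.9 CPM in NAc METH and 59.6, 41.6, 41.3 and 51.5 CPM in SVZ METH. In DG METH it read 76.2, 81.4, 66.9 and 87.0 CPM, and in CA METH 145, 84.0, 88.3 and 91.8 CPM. The 8 hippocampal libraries stood above all 8 others, with CA METH 1 far above its group. NAc minus CA was -1.26 (edgeR FDR 0.0043) and CA minus SVZ was 1.07 (FDR 0.00485). Together with Dusp6 and Etv1 this made 3 of 10 members called in NAc against CA, where 1.27% of all genes were called, and 3 of 10 in CA against SVZ, where 3.91% were. Both pairs share the CA libraries, and the counts moved with single libraries. No member was called in NAc against CA without NAc METH 1, 2 or 4 or CA METH 2 or 4, and none in CA against SVZ without CA METH 4. The range over the single libraries left out was 0 to 4 members in either pair. Without the libraries set apart by their markers, CA minus SVZ was 1.31 for Etv1 (edgeR FDR 0.0213) and 1.02 for Etv5 (FDR 0.014), and neither was called. With the SVZ METH libraries of the same number summed it was 1.51 for Etv1 (edgeR FDR 0.0063) and 1.09 for Etv5 (FDR 0.0173), of which Etv1 was called.

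The other members differed less between the regions. Spred2, an inhibitor of Ras to Raf signalling, read 64.8, 71.8, 63.1 and 66.9 CPM in CA METH and 50.8, 29.0, 42.8 and 29.8 CPM in SVZ METH, without overlap, and the log2 difference of 0.80 (edgeR FDR 0.0036) stayed under 2-fold. Its relative Spred3 read 21.6, 24.9, 23.4 and 24.3 CPM in CA METH against 18.5, 7.76, 14.5 and 9.48 CPM in SVZ METH (0.90, edgeR FDR 0.0088). Spry4 read 23.0, 18.9, 17.2 and 23.0 CPM in CA METH against 10.1, 9.57, 15.3 and 9.72 CPM in SVZ METH (0.87, edgeR FDR 0.0109). Without the libraries set apart by their markers CA minus SVZ was 0.51 for Spred2 (edgeR FDR 0.00999), 0.51 for Spred3 (FDR 0.0350) and 0.69 for Spry4 (FDR 0.0241). CA METH stood above SVZ METH without overlap for 8 of 10 members, against 11.8% of all genes, and above NAc METH for 6 of 10, against 8.34%. The exceptions in CA against SVZ were Spry1 and Spry2. The median log2 difference of the 10 members was 0.83 for CA minus SVZ, against -0.08 over all genes tested, and -0.56 for NAc minus CA, against 0.07.

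Sprouty genes did not all follow this order. Spry2 ranged from 45.4 to 53.7 CPM in CA METH, from 40.7 to 67.8 in DG METH, from 29.4 to 60.0 in NAc METH and from 28.3 to 46.5 in SVZ METH. Spry1 ranged from 2.34 to 5.82 CPM in CA METH and from 4.46 to 6.42 CPM in NAc and SVZ METH, so its lowest value was in CA. Neither gene was called in any pair of regions.

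**Figure D2:**
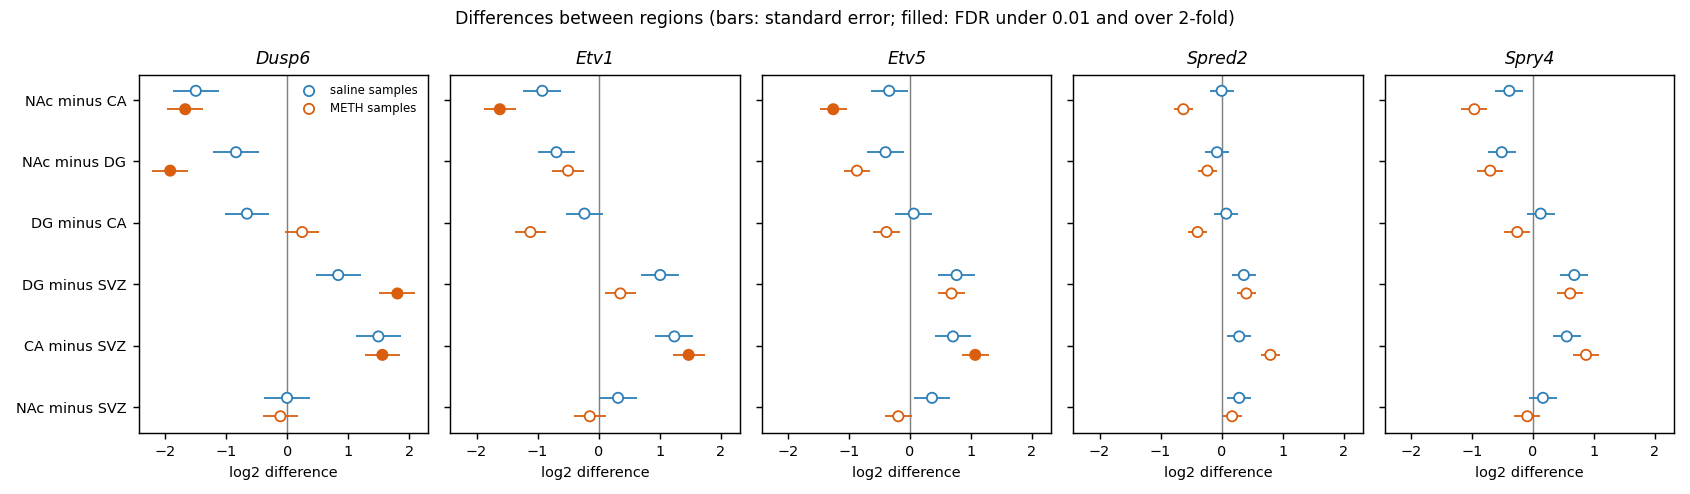
Log2 difference (horizontal axis) for each pair of regions (vertical axis) in Sal and METH samples (colours), shown for 5 genes, with standard errors as bars and filled points for differences called at an FDR under 0.01 and over 2-fold. Dusp6 had 4 filled points, Etv1 and Etv5 had 2 each, all in the METH samples.

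In the Sal samples no member was called among the regions, and neither was any gene in the test across all 4 (0% of 15515 genes, 26.7% at an unadjusted p under 0.05). By pair 0.812% of all genes were called in CA against SVZ and 0.0193% in DG against SVZ. Dusp6 read 28.2, 12.0, 14.98 and 19.4 CPM in NAc Sal, 31.5, 15.98, 14.1 and 13.1 CPM in SVZ Sal, 51.7, 32.8, 14.3 and 34.5 CPM in DG Sal and 51.4, 39.6, 51.7 and 67.8 CPM in CA Sal. CA stood above NAc and SVZ without overlap and DG overlapped with all, its lowest library being DG Sal 3, which had the striatal markers. CA minus SVZ was 1.496 (edgeR FDR 0.0220) and NAc minus CA was -1.497 (FDR 0.0394). Without the libraries set apart by their markers Dusp6 was called across the regions (edgeR FDR 0.0015), with 1.87 for CA minus SVZ (FDR 0.00133), 1.46 for DG minus SVZ (FDR 0.00793) and -1.496 for NAc minus CA (FDR 0.00286). Without DG Sal 1 and 2, which left DG Sal 3 as 1 of 2 DG libraries, it was not called across the regions (edgeR FDR 0.0374), with 0.38 for DG minus SVZ (FDR 0.805) and -0.39 for NAc minus DG (FDR 0.906).

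Etv1 in Sal samples read 79.8, 233, 166 and 213 CPM in CA and 220, 144, 81.5 and 144 CPM in DG, against 91.9, 103, 100 and 70.0 CPM in NAc and 56.5, 84.2, 74.4 and 77.5 CPM in SVZ. CA Sal 1 lay within the range of the NAc libraries, so the groups overlapped, and CA minus SVZ was 1.24 (edgeR FDR 0.0220). Etv5 read 64.5, 68.2, 78.8 and 127 CPM in CA Sal and 51.7, 49.4, 57.0 and 50.1 CPM in SVZ Sal, which did not overlap. In NAc Sal it read 108, 40.5, 65.5 and 52.7 CPM and in DG Sal 118, 107, 54.6 and 73.5 CPM, and these overlapped with CA. That a member was called in the METH samples and not in the Sal samples does not show that the regions differed more after METH, and the interaction of region and treatment was tested separately.

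Other genes of the pathway were read from lists of receptors, ligands, cascade proteins, inhibitors and Ets factors. In the test across the 4 regions in the METH samples, in which 10.7% of all genes were called, 3 of 11 other feedback inhibitors differed, all of them ERK or MAP kinase phosphatases (Dusp9, Dusp5 and Dusp4). In CA minus SVZ the log2 difference was 4.48 for Dusp9, 2.28 for Dusp5 and 1.24 for Dusp4, the same direction as Dusp6. Among the receptors, 3 of 17 differed (Kit, Fgfr1 and Erbb4), with 2.67 for Kit in CA minus SVZ, and 6 of 24 ligands did. In the cascade itself 6 of 33 genes differed, among them Rasgrp2, an activator of Ras-like GTPases, at -1.60 in CA minus SVZ. In the same test 0 of 14 other Ets factors, 0 of 7 other ERK-responsive genes and 1 of 12 immediate early genes (Fosl2) differed. By pair of regions Phlda1, an ERK-responsive gene, was called in NAc minus DG (1.35, edgeR FDR 0.0093), and the immediate early genes Junb (1.33, FDR 0.0085) and Arc (1.87, FDR 0.0090) in CA minus SVZ. The lists were not tested against each other. In the Sal samples 0 genes of these lists were called in that test.

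The second question was what METH did to these genes 24 h after the last injection. At an FDR under 0.01 and over 1.5-fold, 0 of 10 members were called in NAc, DG, CA or SVZ, where 0% of all 14771, 14800, 14612 and 15579 genes tested were called by edgeR. By DESeq2 1, 176, 10 and 2 genes were called in the same order and again 0 members. With 1 or 2 factors of unwanted variation (RUVr) in the edgeR fit 0 genes were called. What follows are therefore values and unadjusted p-values, read against the share of all genes at an unadjusted p under 0.05. That share was 3.39% in NAc, 12.8% in DG, 7.16% in CA and 2.58% in SVZ. The study itself, using edgeR after RUVr, reported genes changed by METH in each region. For Etv5 it described opposite changes in DG and CA, both in the accessibility of an intron region and in expression. The reason for the difference from the present fits was not tested.

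In CA, 8 of the 10 genes had a higher mean in METH, where 7469 of all 14612 genes tested had a log2 fold change above 0. Of these 8 members, 4 had an unadjusted p under 0.05 in edgeR's test, where 4.37% of all genes were higher at that level. Spred2 read 47.8, 53.5, 51.9 and 58.4 CPM in Sal and 64.8, 71.8, 63.1 and 66.9 CPM in METH. Spry4 read 13.7, 12.0, 16.3 and 16.6 CPM in Sal and 23.0, 18.9, 17.2 and 23.0 CPM in METH. Spred3 read 10.96, 18.6, 17.2 and 20.8 CPM in Sal and 21.6, 24.9, 23.4 and 24.3 CPM in METH. For Spred2, Spry4 and Spred3, all of them inhibitors of the path from Ras to Raf, every METH library was above every Sal library. Etv4 read 4.49, 5.45, 4.73 and 5.93 CPM in Sal and 6.44, 9.54, 6.02 and 7.38 CPM in METH, also without overlap.

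Such separation upward was found for 2.57% of all genes in CA. The log2 fold change of METH against Sal was 0.33 ± 0.08 (SE) for Spred2 (unadjusted p = 0.0022), 0.49 ± 0.14 for Spry4 (unadjusted p = 0.0074), 0.51 ± 0.18 for Etv4 (unadjusted p = 0.0171) and 0.48 ± 0.17 for Spred3 (unadjusted p = 0.0219), in edgeR's quasi-likelihood test. Each of the 4 had an edgeR FDR of 0.669. The median of the 10 members was 0.30, against 0.01 over all genes. Etv1 (0.39 ± 0.32) and Etv5 (0.27 ± 0.25) were as large in places but varied more between libraries, and Dusp6 (-0.02 ± 0.17), Spry2 (0.05 ± 0.11) and Spred1 (-0.03 ± 0.07) were near 0. Of the marker lists, the summed level of 5 endothelial markers was 96.9 to 127 CPM in CA METH and 78.9 to 112 CPM in CA Sal (Cldn5 was at 0 in all libraries), and that of 7 astrocyte markers was 3286 to 4078 CPM and 2787 to 3744 CPM. The sum of 7 oligodendrocyte markers was 2381 to 8374 CPM in CA METH (median 2924) and 3111 to 6749 CPM in CA Sal (median 5730). Their part in the result was not tested. With the source folder as a covariate the log2 fold change was 0.27 for Spred2 (edgeR, unadjusted p = 0.019). Etv4 (unadjusted p = 0.0664), Spry4 (unadjusted p = 0.0798) and Spred3 (unadjusted p = 0.176) were then no longer under 0.05. The folder of CA Sal 1 and 2 held no METH library. That fit therefore compares CA METH 1 and 2 with Sal 4, and METH 3 and 4 with Sal 3, so it rests on fewer libraries. Without CA METH 2 the number of members under 0.05 was 2 instead of 4.

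**Figure D3:**
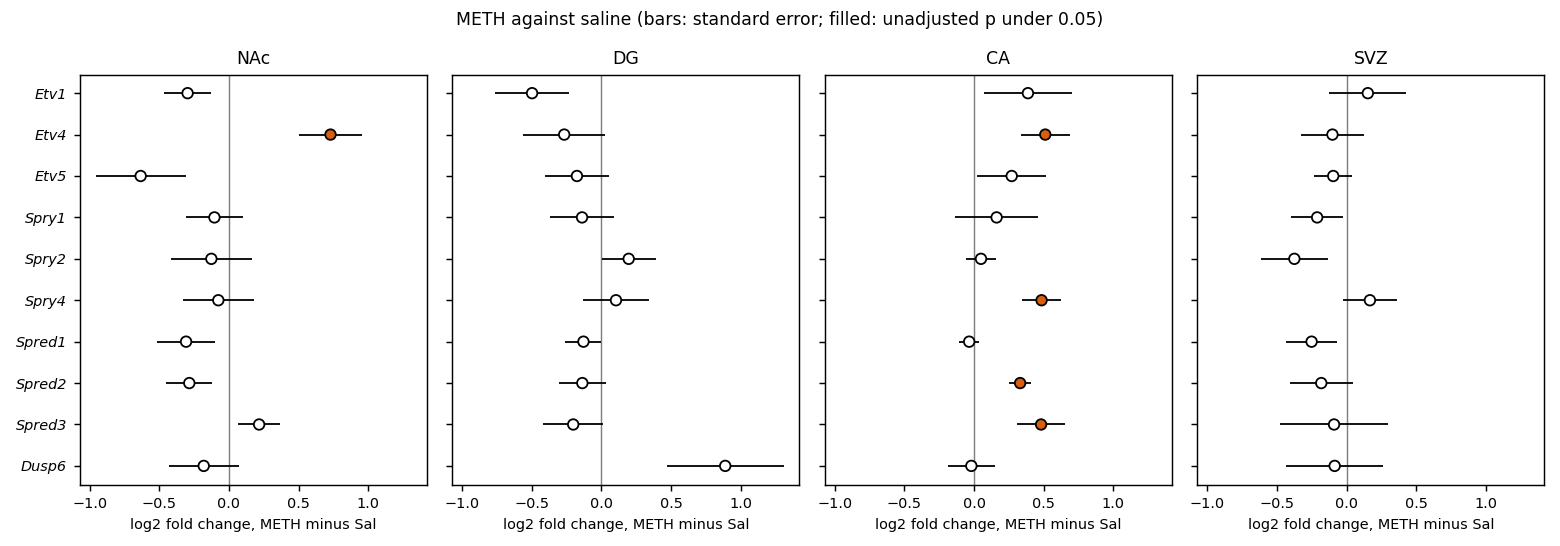
Log2 fold change of METH minus Sal (horizontal axis) for the 10 genes (vertical axis) in each region, with standard errors as bars and filled points for an unadjusted p under 0.05. Filled points are Spred2, Spry4, Etv4 and Spred3 in CA and Etv4 in NAc; none of the points passed the FDR threshold.

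In DG, 0 members had an unadjusted p under 0.05, although 2 did without Sal 1 and 1 did without Sal 3, Sal 4 or METH 1. Dusp6 had the highest fold change, reading 51.7, 32.8, 14.3 and 34.5 CPM in Sal and 33.8, 80.9, 45.3 and 86.3 CPM in METH. The groups overlapped, with 2 METH libraries above all Sal libraries. These 2 libraries, DG METH 2 and 4, also had the highest sums of CA pyramidal neuron markers in DG (1481 and 1326 CPM, against 310 and 426 CPM in METH 1 and 3 and 393 to 694 CPM in Sal). The granule neuron markers summed to 380 to 556 CPM in DG METH 1, 2 and 4 and 114 CPM in METH 3, against 133 to 308 CPM in DG Sal. The astrocyte markers summed to 3512 to 3724 CPM in DG METH and 2511 to 3083 CPM in DG Sal, without overlap. The part of these cells in the result was not tested. The log2 fold change was 0.89 ± 0.42 (edgeR, unadjusted p = 0.0647, FDR 0.429). It was 0.64 without DG Sal 3 (edgeR FDR 0.479), the library with striatal markers. Without the replicates 1 and 2 that carry the numbers of the other treatment it was 1.43 (edgeR FDR 0.732), and DG Sal 3 was then 1 of 2 Sal libraries. With the source folder as a covariate it was 2.00. Only 1 folder held both treatments in DG, so that value compares DG METH 1 and 2 with DG Sal 3 alone. Etv1 read 220, 144, 81.5 and 144 CPM in DG Sal and 125, 106, 86.5 and 98.9 CPM in METH, a log2 fold change of -0.50 ± 0.27 (edgeR FDR 0.484), with overlap.

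In NAc, Etv4 read 4.37, 4.41, 4.27 and 5.58 CPM in Sal and 9.68, 6.97, 4.94 and 9.09 CPM in METH. Sal 4 stood above METH 3, the library low in striatal markers, and otherwise METH was higher. The log2 fold change was 0.73 ± 0.23 (edgeR, unadjusted p = 0.0112, FDR 0.999), and 0.89 without METH 3 (unadjusted p = 0.00100, FDR 0.857). That made 1 of 10 members, where 2.42% of all genes passed that level upward. Without Sal 2 or without Sal 4 there were 2, with 1 or 2 RUVr factors there were 4 and with the source folder as a covariate there were 0. The share of all genes in these refits is not given here. Only 1 folder held both treatments in NAc, so the folder fit compares NAc METH 1 and 2 with NAc Sal 3 and 4. The astrocyte markers summed to 3021 to 4346 CPM in NAc METH and 2654 to 2822 CPM in NAc Sal, without overlap, and their part in the result was not tested. Etv5 had the most negative value (-0.63 ± 0.32, edgeR FDR 0.999). Of the 10 members 8 had a lower mean in METH, where 8542 of all 14771 genes tested had a log2 fold change above 0. NAc Sal 1 was the highest of the 8 NAc libraries for Etv5, Spry1, Spry2, Spred1, Spred2 and Dusp6, and had the highest sum of medium spiny neuron markers (9210 CPM). The part of those cells in the result was not tested.

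In SVZ, 0 members had an unadjusted p under 0.05 (1 without Sal 1), and the log2 fold changes lay between -0.38 (Spry2) and 0.17 (Spry4). The spread between SVZ libraries of the same treatment was large, and for some members it went along with the thalamic markers. In the 3 libraries high in these markers, Spred3 read 5.80 to 9.48 CPM against 14.4 to 18.5 CPM in the other 5, Spry2 read 28.3 to 30.6 CPM against 40.8 to 57.6 CPM, Spred2 read 29.0 to 33.6 CPM against 40.1 to 55.0 CPM, and Spred1 read 60.5 to 70.4 CPM against 79.9 to 116 CPM. Dusp6 went the other way, with 20.2 to 31.5 CPM against 12.0 to 15.98 CPM. Thus 4 members were lower without overlap and Dusp6 was higher, as was Etv4 by a margin in the fourth digit. Etv1, Etv5, Spry1 and Spry4 overlapped, and the widest range of Etv1 (52.7 to 130 CPM) lay among the other 5 libraries. Of all genes 21% were lower and 17.9% higher in this split.

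The same 3 libraries had 242 to 910 CPM of medium spiny neuron markers, against 1790 to 6536 CPM, and 19179 to 28008 CPM of oligodendrocyte markers, against 3979 to 9766 CPM. The split was made on marker genes and crosses the treatments, so no test was run on it, and the part of the marker cells was not tested. Without these libraries the METH effect in SVZ was not called for any member, and that of Spred2 and Spred3 was near 0 (0.01 and 0.05).

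**Figure D4:**
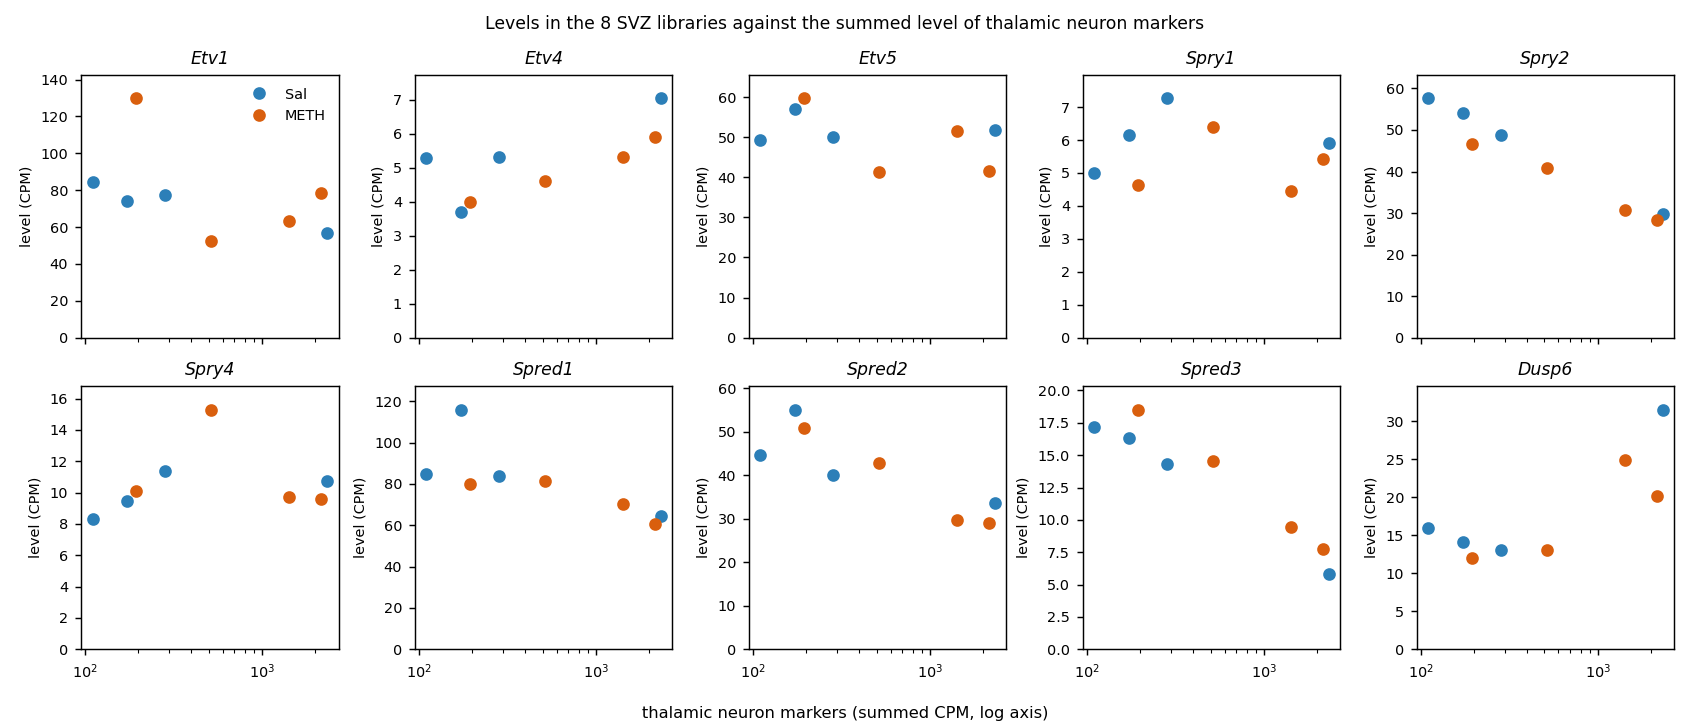
Levels of the members in CPM (vertical axes, from 0) in the 8 SVZ libraries against the summed CPM of 6 thalamic neuron markers (horizontal log axis), coloured by treatment. The 3 libraries at 1431 to 2330 CPM of markers lay lowest for Spry2, Spred1, Spred2 and Spred3 and highest for Dusp6.

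Over the 4 regions together, Spred1 was the 1 member with an unadjusted p under 0.05, where 7.55% of all genes were. Its log2 fold change of METH against Sal was -0.18 ± 0.08 (edgeR, unadjusted p = 0.0331, FDR 0.622). NAc Sal read 164, 91.3, 108 and 93.7 CPM and NAc METH 99.3, 103, 68.3 and 94.9 CPM, while CA Sal (89.96, 99.3, 98.7 and 99.0 CPM) and CA METH (98.6, 86.3, 96.3 and 97.0 CPM) lay close together. In DG it read 71.7 to 108 CPM in Sal and 78.4 to 90.8 CPM in METH, and in SVZ 64.7 to 116 and 60.5 to 81.3 CPM. Sal and METH overlapped in each region. Without NAc Sal 1, NAc METH 3, DG Sal 3, SVZ Sal 3 or SVZ METH 2, no member was under 0.05, and 2 were without DG Sal 1 or DG Sal 2. Without the DG replicates 1 and 2 of both treatments there were 3.

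The difference of the METH effect between DG and CA, the 2 hippocampal regions, was tested as an interaction. Spred2 (-0.48 ± 0.19, unadjusted p = 0.0253), Spred3 (-0.69 ± 0.29, unadjusted p = 0.0314) and Etv4 (-0.79 ± 0.35, unadjusted p = 0.0401) had lower values in DG than in CA in edgeR's test, at FDRs of 0.258 to 0.301, where 8.11% of all genes were lower at an unadjusted p under 0.05. None was called, and none was under 0.05 without CA Sal 1 or without CA METH 2. Without the DG replicates 1 and 2 the unadjusted p was 0.45 for Spred2, 0.17 for Spred3 and 0.17 for Etv4, while that of Dusp6 was 0.0146 (1.45 ± 0.50, edgeR FDR 0.203). In that fit DG Sal 3, the library with striatal markers and the lowest Dusp6 in DG (14.3 CPM), was 1 of 2 DG Sal libraries. Among all 4 regions the METH effect differed for Etv4 at an unadjusted p of 0.0205 (edgeR FDR 0.545), the 1 member under 0.05, where 7.74% of all genes were. With 2 RUVr factors there were 5 members under 0.05, and 2 without the libraries set apart by their markers. With those factors 77 of all genes were called, against 0 in the main fit. The share of all genes under 0.05 in these refits is not given here.

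No gene of the pathway lists was called for METH in any region. In CA, Ccnd1 (cyclin D1, a cell cycle gene that ERK induces) had the lowest p of them, with 27.9 ± 1.42 CPM (SD, n = 4) in Sal and 40.2 ± 1.04 CPM in METH and a log2 fold change of 0.52 ± 0.07 (edgeR FDR 0.0979). At an unadjusted p under 0.05 in CA, 639 of all 14612 genes were higher and 407 lower. Of the receptors in CA, 1 of 17 was higher at that level, Ntrk2 (the BDNF receptor, 0.30 ± 0.08). Of the ligands 3 of 20 were, among them Pdgfb (0.45 ± 0.12) and Pdgfc (0.53 ± 0.15). Dusp4 (0.40 ± 0.16) was the 1 of 11 other feedback inhibitors in CA. In the cascade 4 of 33 genes were higher and 1 lower, with Shc1 (0.38 ± 0.13) and Rasa1 (0.29 ± 0.11) the lowest in p, and 2 of 14 other Ets factors were higher and 1 lower (Ets1 0.29 ± 0.10, Elk1 -0.26 ± 0.08).

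In DG the lowest p-values lay outside the members. Ksr1, a scaffold of the Raf, MEK and ERK kinases, had a log2 fold change of 1.33 ± 0.26 (edgeR FDR 0.164), Fgfr1, an FGF receptor, 0.97 ± 0.23 (FDR 0.182), and Epha4, an ephrin receptor, 0.96 ± 0.24 (FDR 0.199). At an unadjusted p under 0.05, 940 of all 14800 genes were higher in DG and 950 were lower. At that level the cascade list in DG had 4 of 33 genes upward and 2 downward. Of the other Ets factors 1 was higher and 3 lower, Etv6 (-0.57 ± 0.17) and Ets2 (-0.56 ± 0.18) among the latter. Immediate early genes are switched on within minutes by ERK and calcium signals. In SVZ 5 of 12 were lower at an unadjusted p under 0.05 in edgeR's test, where 1.39% of all genes were. Arc stood at -1.14 ± 0.32 and Npas4 at -3.52 ± 1.00, both with an edgeR FDR of 0.980. Without the libraries set apart by their markers 7 of 12 were lower, and 3 of 12 with the METH libraries of the same number summed. The share of all genes in these refits is not given here, so their counts cannot be read against it. Of the libraries kept in the former refit, SVZ METH 1 and 3 had 1790 and 3285 CPM of medium spiny neuron markers. SVZ Sal 2, 3 and 4 had 3637 to 6536 CPM, and the part of those cells was not tested. In NAc, where 143 of all 14771 genes were lower at that level, 1 immediate early gene was lower (Npas4, -1.03 ± 0.43). In DG 2 were (Fosb, -0.78 ± 0.32, and Egr2, -0.91 ± 0.40). In CA Egr3 was lower (-0.35 ± 0.12) and Fosl2 higher (0.59 ± 0.25). In NAc Kit (-0.50 ± 0.14) was among 3 of 16 receptors that were lower.

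Members also varied together between libraries of the same group. After each group's mean was removed, the deviations of Spry2 and Spred2 over the 32 libraries had a Pearson correlation of 0.78, those of Spry2 and Spred1 of 0.72, those of Spred1 and Spred2 of 0.72 and those of Etv5 and Spry2 of 0.67. Without the 2 libraries in which the first-named gene of a pair lay farthest from its median these were 0.77, 0.62, 0.65 and 0.64. The deviations of Dusp6 gave 0.55 with Etv5, 0.20 with Spry2, -0.29 with Spry1 and -0.32 with Spred3. Without the 2 libraries in which the other gene of the pair, not Dusp6, lay farthest from its median these were 0.48, 0.39, -0.23 and -0.14. The libraries share depth, scaling and tissue composition, so these values are descriptions only.

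**Figure D5:**
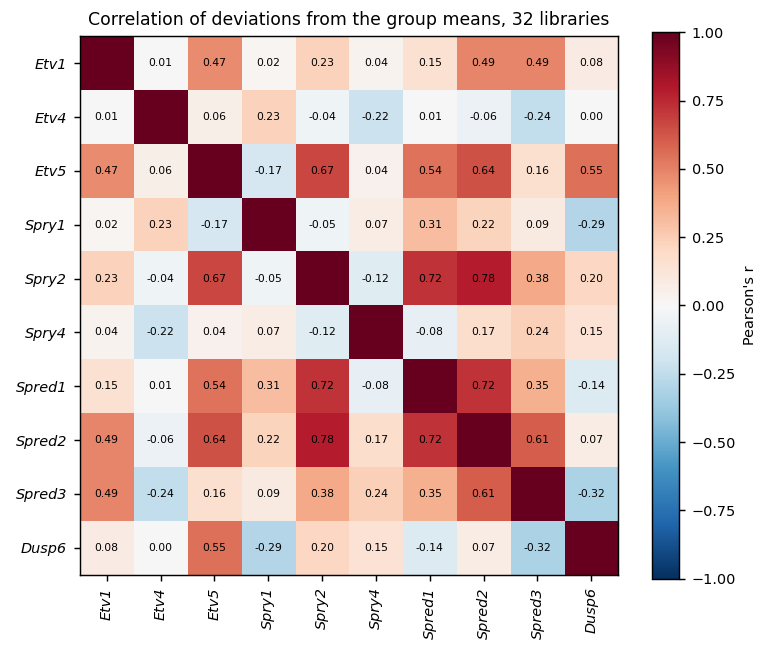
Pearson correlation (colour) of the deviations from the group means between the 10 genes (both axes) over 32 libraries. The highest value was 0.78 for Spry2 and Spred2, Spred2 and Spred3 gave 0.61, Etv5 and Spred1 gave 0.54, and Dusp6 against Spred3 the lowest, -0.32.

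Among 14457 genes with a mean of at least 1 CPM, the genes most like each member in level over the 32 libraries were named by their Pearson correlation. Spry2 was most like Plcb1, a phospholipase C (Pearson r = 0.93 over 32 libraries, 0.93 after removal of group means), and Dusp6 most like Kcnab2, a potassium channel subunit, and Mical2 (0.91 each, and 0.71 after removal of group means). Etv5 was most like Hivep2 (0.89, and 0.83) and the glutamate receptor gene Gria3 (0.86), Etv1 most like Mst1r (0.89, and 0.71) and Rasa1 (0.84), and Spred3 most like Rab26 (0.88) and Ly6h (0.87). Likeness was weaker for the least abundant genes, Etv4 (Slc13a5, 0.76, and Nog, 0.70) and Spry1 (Coch, 0.78, and Skap2, 0.77). The others were Spred1 with Fbxl16 (0.85) and Klf16 (0.84), Spred2 with Socs7 (0.87) and Acta1 (0.86), Spry2 with Rab15 (0.90) and Spry4 with Ddost (0.85) and Xbp1 (0.80). By rank correlation only 7 of the named genes stayed among the 2 most like their member. Neither gene named for Dusp6, Spred1 or Spred3 did.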

How the data were processed

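Total RNA of 32 tissue samples was depleted of rRNA and sequenced. Per the file headers and submitters' notes, the authors trimmed reads with cutadapt 2.7, aligned them to rn6 with STAR 2.5.2b and deposited whole-number read counts per gene from featureCounts 1.6.3, counted without strand. The headers name an Ensembl annotation and the study's methods a UCSC one. From these counts, genes kept by filterByExpr were fitted in edgeR 4.0.16 (quasi-likelihood, upper-quartile scaling, Benjamini-Hochberg FDR), either within a region, over regions, or between regions within a treatment. TPM used annotated exon lengths. The study's methods also removed factors of unwanted variation (RUVr), tried here as an alternative beside DESeq2 1.42.0, other scalings and filters, and each library left out. The labels do not tie samples of different regions to an animal, so p-values measure the spread between samples. In the file headers NAc and CA libraries of a treatment carry the same library number replicate by replicate, as do DG replicates 3 and 4. Whether a number marks an animal is not stated. The deviations of same-numbered NAc and CA libraries correlated at 0.111 to 0.249 in Sal and -0.11 to 0.242 in METH samples. The main fits treat them as independent, and a replicate block was fitted beside them. No 2 libraries of a group agreed within sampling noise (chi-square per gene 16.5 to 192.2). All 10 members were named in each comparison, and of the pathway lists the genes called or the 2 with the lowest p, except for a few not reported here. The members and lists were chosen with earlier results of these data known. Leaving out the 5 libraries set apart by markers, summing SVZ METH libraries of the same number between regions and the block in NAc and CA alone were chosen after seeing the data. The fits were tested on simulated data with changes larger than the METH effects of the members in the main fits and with a fixed spread. The power for effects of the size seen here was not measured.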

Additional observations from a re-analysis of the deposited data

Results flagged for a closer look

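Within 5 of the 80 groups of 4 libraries (10 genes in 8 groups) 1 library lay far from the other 3 by Dixon's test, where chance gives about 1 in 20. Dusp6 read 31.48 CPM in SVZ Sal 1, against 13.08 to 15.98 CPM in the other Sal libraries of SVZ, and this is a library high in thalamic markers. Etv5 read 144.7 CPM in CA METH 1, against 83.98 to 91.85 CPM in the other 3. Spry4 read 15.26 CPM in SVZ METH 3, against 9.565 to 10.12 CPM, and this library had 8341 CPM of choroid plexus markers. Etv4 read 5.575 CPM in NAc Sal 4, against 4.268 to 4.406 CPM. Spred1 read 89.96 CPM in CA Sal 1, against 98.66 to 99.32 CPM, the 1 case in which the distant library was the lowest.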

How the results depend on the processing

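No member was called for METH in any region under any other scaling, filter or tool, with RUVr factors, or at an FDR under 0.05 with no fold minimum. Counted at an unadjusted p under 0.05, 4 members passed in CA and 1 in NAc. In NAc there were 4 with 1 or 2 RUVr factors and 0 with the source folder as covariate. In CA there were 6 with 2 RUVr factors and 1 with the source folder. In DG there were 2 and in SVZ 1 with 2 RUVr factors, against 0 in each. For the METH effect differing among the regions there were 5 with 2 RUVr factors instead of 1, and 77 of all genes were called there instead of 0. The share of all genes under 0.05 in these other fits is not given here, so the counts are not read as a gain or loss of the members. The folder fits also rest on fewer libraries, since some folders held 1 treatment only. The count of 5 members differing among regions in METH samples became 3 with total library size and 2 without the DG replicates 1 and 2, and 3 to 5 with single libraries left out. In Sal samples 0 became 2 with DESeq2, 1 with 2 RUVr factors, 1 without the libraries set apart by markers and 1 in a fit of all 32 samples. All genes called among the regions in METH samples numbered 1676, but 3495 with 1 and 4308 with 2 RUVr factors. Outside NAc and CA in Sal samples the deviations of libraries of the same replicate number correlated at -0.778 to 0.417. Both extremes were between METH and Sal of a region, and whether libraries of different regions share an animal cannot be read from such values. With the replicate number as a block 4 members were called among regions in METH samples and 0 in each other comparison. With a block in NAc and CA alone, chosen after seeing the data, 3 members were called among regions in METH samples, Dusp6 was not called in NAc against CA, and 0 members were called in Sal samples. The cause of these shifts was not tested.

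The direction of some METH effects on the log2 scale, none of them called, turned. With the source folder as covariate these were Etv1 (0.49), Etv5 (0.52) and Spred2 (0.11) in DG, Spred1 (0.015) and Spry2 (0.19) in NAc and Spry2 (-0.024) in CA. The DG values of that fit compare DG METH 1 and 2 with DG Sal 3 alone, since only 1 folder held both treatments there. For the same reason its NAc values compare NAc METH 1 and 2 with NAc Sal 3 and 4. Its CA values do not draw on CA Sal 1 and 2, whose folder held no METH library. Leaving out DG replicates 1 and 2 kept DG Sal 3 as 1 of 2 DG Sal libraries. Then Etv5 (0.26), Spred2 (0.22) and Spred3 (0.0064) turned in DG, Etv1 (0.027) over the regions and Spry4 (0.038) in DG against CA. Without the libraries set apart by markers the effects that turned were Spred2 (0.0090) and Spred3 (0.051) in SVZ and Spry2 (0.0019) over the regions. With single libraries left out, values ranged as follows. In NAc, Dusp6 lay from -0.35 to 0.083, Spry1 from -0.22 to 0.060, Spry2 from -0.27 to 0.15 and Spry4 from -0.36 to 0.051. In DG, Spred2 lay from -0.24 to 0.0044, Spred3 from -0.34 to 0.026, Spry1 from -0.30 to 0.0023 and Spry4 from -0.016 to 0.41. In CA, Dusp6 lay from -0.13 to 0.12, Spred1 from -0.066 to 0.0073 and Spry2 from -0.035 to 0.10. In SVZ, Dusp6 lay from -0.30 to 0.28, Etv1 from -0.17 to 0.31, Etv4 from -0.24 to 0.055, Spred3 from -0.34 to 0.081 and Spry4 from -0.026 to 0.24. Over the regions Etv1 lay from -0.15 to 0.0052. The lowest members, Spry1 and Etv4, rested on 28 to 149 reads a library, where counting error alone is large.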

Other observations

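Some levels belong to no comparison above. The choroid plexus markers, which a sample at the ventricle can pick up, summed to 6229 CPM in DG METH 3 and 8341 CPM in SVZ METH 3, with medians of 20.1 CPM in DG METH and 67.5 CPM in SVZ METH. In DG METH 3, Spry4 read 18.1 CPM, the highest of its group (15.5 to 18.1 CPM), and Etv1 read 86.5 CPM, the lowest (86.5 to 125 CPM). In SVZ METH 3, Etv1 read 52.7 CPM, the lowest of all 32 libraries, and Spry4 read 15.3 CPM, the highest of the 8 SVZ libraries. The part of choroid plexus cells in these levels was not tested.

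DG Sal 1 gave the highest levels of Spry4 (25.1 CPM), Spred2 (71.8 CPM) and Spred3 (25.2 CPM) of all 32 libraries, and NAc Sal 1 those of Spry1 (8.07 CPM), Spry2 (83.2 CPM) and Spred1 (164 CPM). Each of the 6 Sprouty and Spred genes thus had its highest level in 1 of these 2 Sal libraries. The share of all genes that did so was not counted. NAc Sal 1 also had the highest sum of medium spiny neuron markers (9210 CPM), and the part of those cells was not tested.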
